A study of Mus musculus with 36 samples.

Results

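Cyclic AMP and cyclic GMP are second messengers made by adenylyl and guanylyl cyclases, broken down by phosphodiesterases and read mainly by protein kinase A (PKA) and protein kinase G (PKG). The genes described here are those whose platform symbol begins with Adcy, Pde, Prka, Prkg or Gucy followed by a digit or a letter. This rule took in 55 of the 17711 named genes on the array, and the probe with the highest mean log2 intensity over all arrays stood for each gene. Besides the cyclases, phosphodiesterases and kinases, the shared prefixes bring in *Adcyap1* and *Adcyap1r1*, which encode the peptide PACAP and its receptor, the 7 subunits of the AMP-activated protein kinase (AMPK), *Pde4dip*, which encodes a protein that anchors phosphodiesterases, and *Pde12*, whose product cleaves RNA and not cyclic nucleotides.

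Hippocampal RNA of male mice was hybridized to MouseWG-6 v1.1 BeadChips in 2 experiments. The first compared 5 Braf-cko mice with 6 Braf-flox littermates at 4 months of age, on a mixed background of 93.7% C57BL/6J and 6.2% FVB on average, with a small rest from another strain. Both groups were homozygous for the Braf-flox allele, and the Braf-cko mice also carried 1 copy of the CamkII-Cre transgene, which removes *Braf* in principal neurons of the forebrain after birth so that other cells of the tissue keep the gene. The second compared 6 heterozygous CamkII-Cre mice with 6 wildtype littermates (CamkII-wt) at 6 months of age on C57BL/6J, to show what the transgene does by itself. Neither group of this second experiment had floxed *Braf*. The transgene has the promoter of CamkIIa, and the chromosome segment around it is inherited with it.

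In the hippocampus, cAMP is known for its part in long-lasting synaptic change, where calcium entering through glutamate receptors activates some adenylyl cyclases and PKA then phosphorylates channels and the transcription factor CREB. The cascade of BRAF, MEK and ERK meets this route at several points in neurons: cAMP can feed into ERK activation, and ERK can phosphorylate phosphodiesterases of family 4. CREB binds the cAMP response element (CRE), with the letters TGACGTCA, or its shorter core TGACG.

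Array medians were 52.3 to 53.3 in Braf-cko mice, 51.8 to 53.2 in Braf-flox mice, 65 to 69.1 in CamkII-Cre mice and 65 to 70.2 in CamkII-wt mice on the linear intensity scale, so that levels were read only within an experiment. The single *Braf* probe was too dim to be tested (log2 intensity 5.37 to 5.66 in Braf-cko mice, 5.45 to 5.76 in Braf-flox mice), and its position relative to the deleted exon is not given, so it does not check the genotype. The summed linear intensity of 4 markers of principal neurons was 9060 to 11600 in Braf-cko mice and 7700 to 10500 in Braf-flox mice. No other tissue was measured beside it, so this sum does not check the labelled tissue. Among 34 tested markers of hippocampal and neighbouring cell types, *Neurod2*, a transcription factor of excitatory neurons, passed the test in the Braf comparison (log2 change 0.47, standard error 0.09, adjusted p = 0.025 from limma). At an unadjusted p under 0.05, 5 of the 34 were lower: *Aqp4* and *Slc1a2* of astrocytes (-0.26 and -0.17, whereas the astrocyte marker *Gfap* gave 0.17), *Fibcd1* of CA1 neurons (-0.61), *Slc32a1* of interneurons (-0.17) and *Flt1* of endothelium (-0.27). The 2 higher ones were *Neurod2* and *Slc17a7* of principal neurons (0.34). Of all probes tested, 5.41% were lower and 5.37% higher at an unadjusted p under 0.05. The part of these markers in the results was not tested. In whole tissue, fewer cells of a type and less RNA per cell cannot be told apart.

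None of the 43 cyclic nucleotide genes bright enough to be tested passed the adjusted threshold of 0.05 between Braf-cko and Braf-flox mice. The smallest adjusted p was 0.11 from limma, for *Pde1a*, which the paper lists as lower at its own adjusted threshold of 0.05. Over all 23316 probes tested, 0.373% passed as lower and 0.159% as higher. At an unadjusted p under 0.05, 4 of the 43 genes were lower in Braf-cko mice and 4 were higher. Both directions together made up 18.6% of them, beside 10.8% of all probes (5.41% lower and 5.37% higher). The values of the 2 groups overlapped for each of the 43 genes, whereas the groups did not overlap for 1.03% of all probes in the lower direction and 0.691% in the higher direction. The log2 changes of the 43 genes ran from -0.53 to 0.30 with a median of -0.03, beside a median of 0 over all probes, and 58.1% of them were below 0, beside 49% of all probes. For 38 of the 43, 88.4%, the 95% interval of the change lay within 0.5 log2 units of 0, beside 92.7% of all probes. The other 12 members were below the filter on dim probes in this comparison, among them *Adcy10*, *Gucy2e*, *Gucy2f*, *Pde9a*, *Prkar2a*, *Prkag3* and all but 1 of the 5 genes of the retinal phosphodiesterase family 6.

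**Figure D1:**
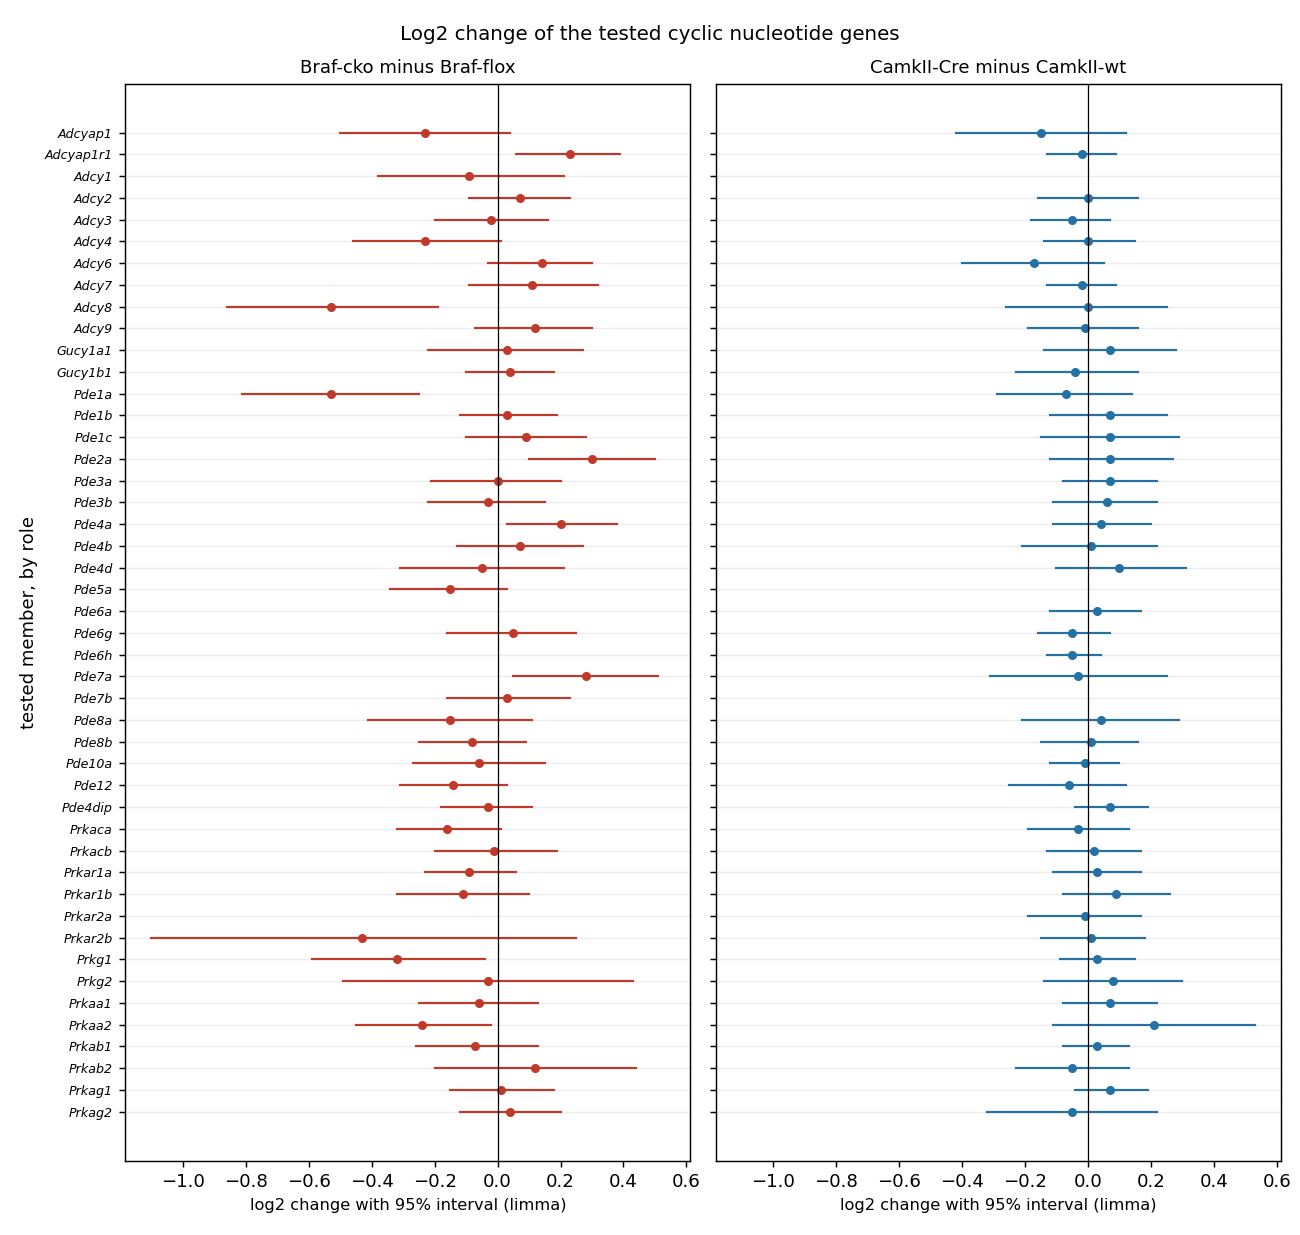
Log2 change of each tested cyclic nucleotide gene (points) with its 95% interval from limma (lines), for Braf-cko minus Braf-flox at the left and CamkII-Cre minus CamkII-wt at the right, with the genes in order of role. A gap marks a gene below the filter in that comparison. Changes run from -0.53 to 0.30 at the left and from -0.17 to 0.21 at the right, and the interval of *Prkar2b* at the left is the widest.

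Promoter sequences show where the letters read by CREB lie in the genes with the smallest p in each direction among those with a listed sequence. RefSeq windows of 300 bases (GRCm38.p6), reaching from 250 bases before to 50 bases after an annotated start, were held for 45 of the 55 members. Both strands were searched for the full CRE, for the core TGACG (the short site), which the full site contains, and for CCGGAAG, a core bound by ETS factors such as ELK1. The full site stood in 1 of the 45 members (*Prkar1a*, a regulatory subunit of PKA), 2.22%, beside 2.03% of all 27025 genes. The short site stood in 19 of the 45, 42.2%, beside 23% of all genes, but members had 88 windows in all, and by window the shares were 25% and 20.8%. The ETS core was in 17.8% of the members and 9.93% of all genes, or 10.2% and 8.86% of the windows. *Pde1a* has 4 windows and *Pde2a* has 5, and in each gene 1 window holds a short site. The windows with the short site are printed 5′ to 3′ along the gene, at chr2:80038853-80039152 on the minus strand for *Pde1a* and chr7:101450270-101450569 on the plus strand for *Pde2a*, with the short site in capitals. It reads CGTCA in both, the complement strand of TGACG. It begins 166 bases before the start in *Pde1a* and at base 265 of the window, just past the start, in *Pde2a*.
Pde1a: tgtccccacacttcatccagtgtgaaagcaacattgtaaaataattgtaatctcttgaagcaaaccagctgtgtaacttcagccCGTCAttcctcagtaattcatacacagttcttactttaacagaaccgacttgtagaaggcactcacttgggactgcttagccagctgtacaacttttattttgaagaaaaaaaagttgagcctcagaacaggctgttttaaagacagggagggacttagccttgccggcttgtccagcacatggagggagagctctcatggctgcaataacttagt
Pde2a: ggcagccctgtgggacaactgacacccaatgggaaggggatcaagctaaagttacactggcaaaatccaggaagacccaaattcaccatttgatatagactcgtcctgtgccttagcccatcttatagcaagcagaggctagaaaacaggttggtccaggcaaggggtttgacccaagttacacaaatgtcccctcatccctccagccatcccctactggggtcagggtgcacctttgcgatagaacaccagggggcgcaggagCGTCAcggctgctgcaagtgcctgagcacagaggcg
A match to these letters is no evidence of binding. Of the 8 members with an unadjusted p under 0.05 in the Braf comparison, 6 have a listed window, and 4 of these have a short site. Over all 45 members the share was 42.2%, beside 23% of all genes. These counts by gene do not allow for genes with several windows, such as *Pde1a* with 4 and *Pde2a* with 5.

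PACAP is a neuropeptide whose receptor raises cAMP. The gene for the receptor, *Adcyap1r1*, had log2 intensities of 11.44, 11.37, 11.24, 11.15 and 11.24 in the 5 Braf-cko mice, against 10.88 to 11.17 with a median of 11.11 in Braf-flox mice. All 5 Braf-cko values lay above the mean of the controls, and 1 of them fell inside the control range. The log2 change was 0.23 (standard error 0.08, 95% interval 0.06 to 0.39, unadjusted p = 0.0099, adjusted p = 0.27 from limma), and the other tested probes of the gene gave 0.21 and 0.19. An exact permutation test of the group means of the brightest probe, two-sided, gave p = 0.00866. The ligand gene *Adcyap1* averaged 7.08 ± 0.26 in Braf-cko mice (SD, n = 5) and 7.30 ± 0.22 in Braf-flox mice (SD, n = 6), a log2 change of -0.23 (adjusted p = 0.56 from limma), with -0.08 at its second probe.

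Of the 8 tested adenylyl cyclases, *Adcy8* had an unadjusted p under 0.05. *Adcy8* encodes a cyclase that is stimulated by calcium and calmodulin. Its log2 intensities were 8.75, 8.6, 9.14, 8.55 and 9.26 in the Braf-cko mice, against 8.95 to 9.8 with a median of 9.34 in Braf-flox mice. Animals 1, 2 and 4 of the Braf-cko group lay below every control, and animals 3 and 5 lay inside the control range. On the linear scale it stood at 69.4% of the Braf-flox level (log2 change -0.53, standard error 0.16, 95% interval -0.86 to -0.19, unadjusted p = 0.0043, adjusted p = 0.20 from limma; exact permutation p = 0.0238). *Adcy1*, also for a calcium-stimulated cyclase, gave -0.09 (95% interval -0.38 to 0.21). *Adcy4*, which calcium does not stimulate, gave -0.23 (unadjusted p = 0.056, adjusted p = 0.48), with -0.17 at its second probe, and the remaining *Adcy2*, *Adcy3*, *Adcy6*, *Adcy7* and *Adcy9* gave -0.02 to 0.14. The subunits of the nitric oxide receptor, which makes cGMP, were near 0 at their brightest probes, with a log2 change of 0.03 for *Gucy1a1* and 0.04 for *Gucy1b1* (standard errors 0.11 and 0.07). The 3 other probes of *Gucy1a1* gave 0.28, 0.24 and 0.05.

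Phosphodiesterases end the signal, and their families differ in which nucleotide they cleave and in what activates them. Leaving out *Pde4dip*, 17 of the 23 phosphodiesterase genes were tested in the Braf comparison, with a median log2 change of 0. At an unadjusted p under 0.05, 1 was lower and 3 were higher, beside 5.41% lower and 5.37% higher of all probes. The lower one was *Pde1a*, which encodes a phosphodiesterase activated by calcium and calmodulin. Its log2 intensities were 10.05, 10.09, 9.88, 9.6 and 9.42 in the Braf-cko mice, against 10.08 to 10.6 with a median of 10.37 in Braf-flox mice. Only the highest Braf-cko value, in animal 2, reached into the control range, at its lower end. On the linear scale it stood at 69.3% of the Braf-flox level (log2 change -0.53, standard error 0.13, 95% interval -0.81 to -0.25, unadjusted p = 0.0012, adjusted p = 0.11 from limma; exact permutation p = 0.013). Its second probe gave -0.44 (unadjusted p = 0.014, adjusted p = 0.30). The other members of the family gave 0.03 for *Pde1b*, with a 95% interval of -0.12 to 0.19, and 0.09 for *Pde1c*, with one of -0.10 to 0.28.

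*Pde2a*, *Pde7a* and *Pde4a* were the phosphodiesterases on the other side. *Pde2a* encodes an enzyme that cGMP stimulates to cleave cAMP. It had log2 intensities of 9.65, 9.51, 9.83, 9.56 and 9.79 in the Braf-cko mice, against 9.08 to 9.57 with a median of 9.4 in Braf-flox mice, so that 3 Braf-cko mice lay above every control. The log2 change was 0.30 (standard error 0.09, 95% interval 0.10 to 0.50, unadjusted p = 0.0054, adjusted p = 0.22 from limma; exact permutation p = 0.0108). The second probe of *Pde2a* had the opposite sign, -0.15 (unadjusted p = 0.091), so the direction for this gene depends on the probe. *Pde7a*, for a cAMP-specific enzyme, gave 0.28 (standard error 0.11, adjusted p = 0.35 from limma, exact permutation p = 0.0541). Its values were 7.54, 7.68, 7.96, 7.49 and 7.69 in the Braf-cko mice against 7.14 to 7.64 with a median of 7.36 in Braf-flox mice. Its other probes gave 0.07 and 0.11. The one at 0.07 averaged 7.51 in Braf-cko and 7.43 in Braf-flox mice, against 7.67 and 7.39 at the brightest probe. *Pde4a*, of the cAMP-specific family that rolipram inhibits, gave 0.20 (standard error 0.08, adjusted p = 0.36 from limma, exact permutation p = 0.0368). Its values were 8.31, 8.29, 8.62, 8.5 and 8.49 in the Braf-cko mice against 8.11 to 8.36 with a median of 8.23 in Braf-flox mice. The 4 tested probes of *Pde4a* were all above 0, from 0.07 to 0.26, whereas its relatives *Pde4b* and *Pde4d* gave 0.07 and -0.05.

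**Figure D2:**
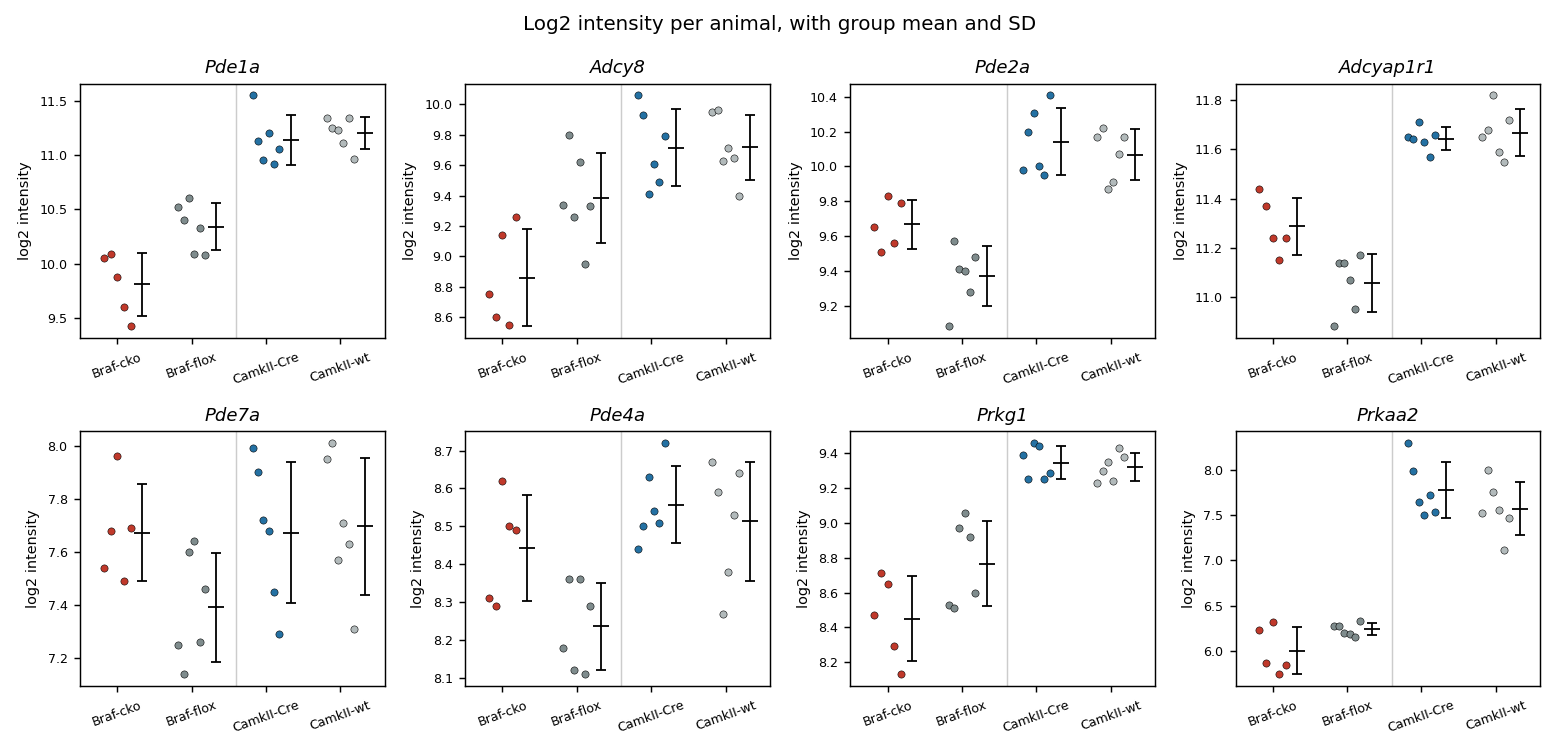
Log2 intensity in each animal (points), with the group mean and SD (bars), for the 8 cyclic nucleotide genes with an unadjusted p under 0.05 between Braf-cko and Braf-flox mice. Each gene is shown at the probe that was brightest over all arrays of both experiments. The vertical line parts the 2 experiments, whose levels are not comparable. *Pde1a*, *Adcy8*, *Prkg1* and *Prkaa2* average lower in Braf-cko than in Braf-flox mice and the other 4 genes higher, with overlap in every panel, and none has an unadjusted p under 0.05 between CamkII-Cre and CamkII-wt mice.

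Among the other phosphodiesterases, *Pde5a*, for a cGMP-specific enzyme, gave -0.15 in Braf-cko against Braf-flox mice (adjusted p = 0.56 from limma), and *Pde12* gave -0.14 (adjusted p = 0.57). *Pde8a*, for a high-affinity cAMP phosphodiesterase, gave -0.15 (adjusted p = 0.72). *Pde10a*, an enzyme best known from the striatum that cleaves both nucleotides, gave -0.06 (0.06 at its second probe), *Pde3b*, which cGMP inhibits, -0.03, *Pde6g*, for a retinal inhibitory subunit, 0.05, and *Pde4dip* -0.03 (0.05 and -0.12 at its other probes). Each of these 7 had an interval that included 0.

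Neither catalytic subunit of PKA passed the test between Braf-cko and Braf-flox mice. *Prkaca* averaged 9.92 ± 0.06 in Braf-cko mice (SD, n = 5) and 10.08 ± 0.15 in Braf-flox mice (SD, n = 6), a log2 change of -0.16 (unadjusted p = 0.057, adjusted p = 0.49 from limma; exact permutation p = 0.0411), and *Prkacb* gave -0.01 (95% interval -0.20 to 0.19). The regulatory subunits hold the catalytic ones inactive until cAMP binds. *Prkar1a* gave -0.09 and *Prkar1b* -0.11 (0.14 at its second probe), neither with an unadjusted p under 0.05. *Prkar2b*, the main type II regulatory subunit of neurons, had the widest interval of all tested members, with a log2 change of -0.43 (standard error 0.32, 95% interval -1.10 to 0.25, adjusted p = 0.69 from limma).

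Its brightest probe varied among littermates of both genotypes. *Prkar2b* had 8.5, 8.4, 10.13, 8.99 and 9.63 in the Braf-cko mice, against 8.56, 10.26, 9.36, 9.75, 9.87 and 9.53 in the Braf-flox mice. Low values thus occurred in both groups. In the Cre experiment the same probe ran from 10.14 to 10.51 in CamkII-Cre mice and from 10.12 to 10.50 in CamkII-wt mice. The SD within groups was 0.66 over the Braf experiment and 0.14 over the Cre experiment, a ratio of 4.62, against a median ratio of 1.12 over the 40 members tested in both and 1.14 over 21028 probes, of which 0.737% had a higher ratio. The next highest ratio among the members' brightest probes was 2.78. The second tested probe of *Prkar2b* had an SD of 0.10 in Braf-cko and 0.14 in Braf-flox mice, and a log2 change of -0.01. The experiments differed in strain background, age, floxed allele and normalization, and these cannot be told apart.

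**Figure D3:**
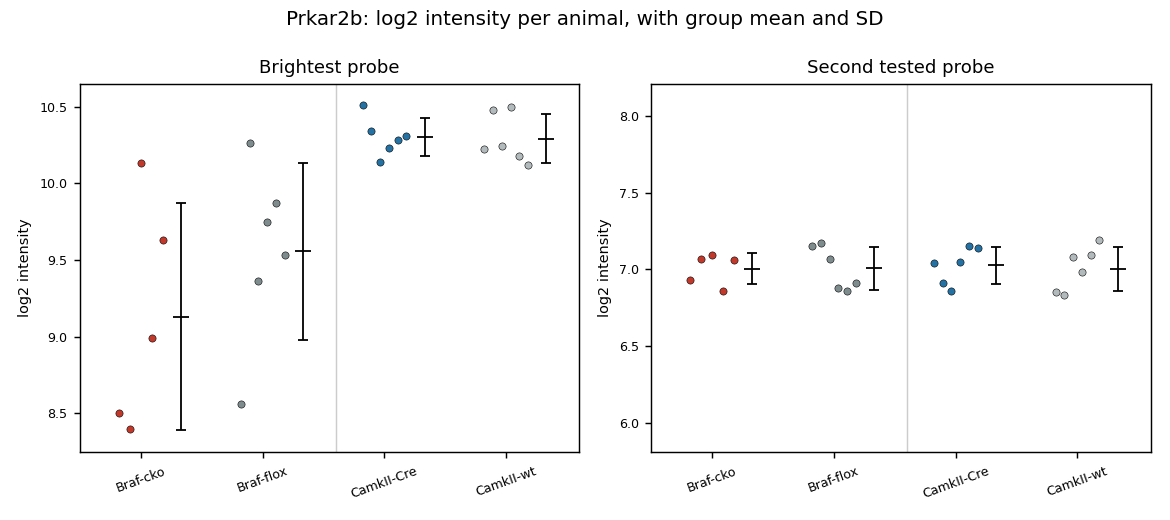
Log2 intensity of both tested probes of *Prkar2b* in each animal (points), with the group mean and SD (bars), over the same span of log2 units in both panels. The brightest probe spans 8.4 to 10.13 in Braf-cko mice and 8.56 to 10.26 in Braf-flox mice but 10.12 to 10.51 over both groups of the Cre experiment, and the second probe shows no such spread.

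PKG carries the cGMP signal. *Prkg1* had log2 intensities of 8.47, 8.71, 8.65, 8.29 and 8.13 in the Braf-cko mice, against 8.51 to 9.06 with a median of 8.76 in Braf-flox mice, so that 3 Braf-cko mice lay below every control. The log2 change was -0.32 (standard error 0.13, unadjusted p = 0.027, adjusted p = 0.38 from limma; exact permutation p = 0.0671). *Prkg2* gave -0.03 (95% interval -0.49 to 0.43). AMPK senses AMP and not cyclic nucleotides, and enters through its prefix. Its catalytic subunit gene *Prkaa2* had 6.23, 5.86, 6.32, 5.74 and 5.84 in the Braf-cko mice, against 6.15 to 6.33 with a median of 6.24 in Braf-flox mice. Of the Braf-cko mice, 3 lay below all controls and the other 2 inside their narrow range. The log2 change was -0.24 (standard error 0.10, unadjusted p = 0.034, adjusted p = 0.41 from limma, exact permutation p = 0.0801). The second probe gave -0.05. In these mice it was the brighter one, with means of 6.71 in Braf-cko and 6.76 in Braf-flox mice, against 6.00 and 6.23. The other 5 tested AMPK subunits gave -0.07 to 0.12.

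Probes of the same gene did not always point the same way. In the Braf comparison, 20 members had at least 2 tested probes, and for 13 of them all tested probes had the same sign, while 7 were split. *Pde1a*, *Adcyap1r1*, *Pde4a* and *Pde7a* were among the 13, *Pde2a* among the 7. *Adcy8* and *Prkg1* had 1 tested probe each. Over the 12 mice of the Cre experiment, each with 2 arrays, the median SD of 43 members was 0.10 between the arrays of a mouse and 0.14 between mice.

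**Figure D4:**
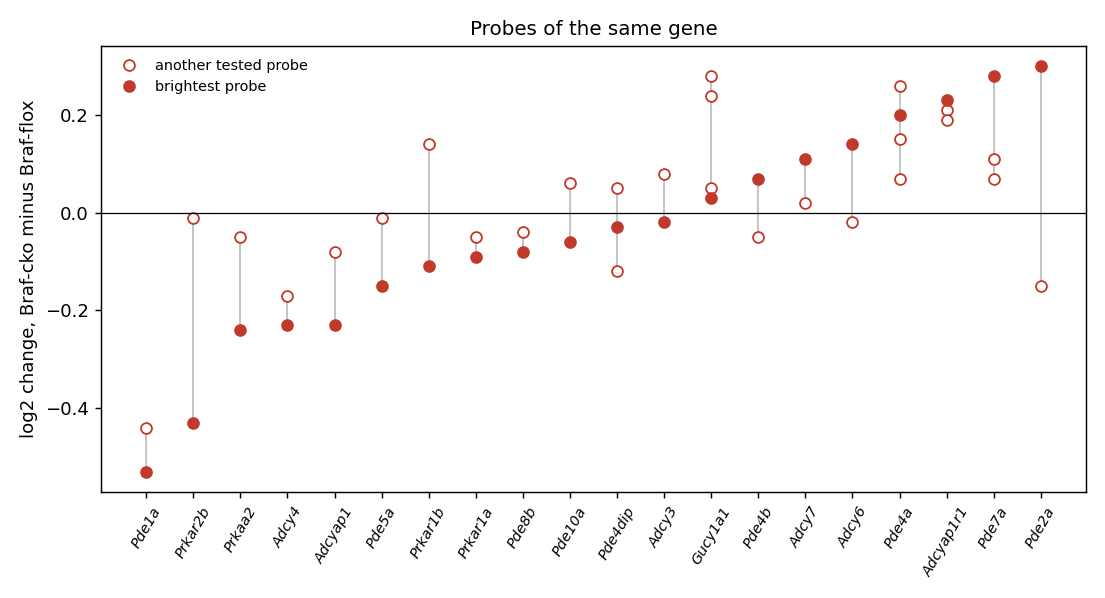
Log2 change between Braf-cko and Braf-flox mice at each tested probe of the 20 genes with at least 2 tested probes, in order of the change at the brightest probe (filled). Open circles are the other probes of the gene and grey lines join them. For 13 genes all circles lie on the same side of 0, and *Pde2a* spans -0.15 to 0.30.

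Markers of CA1 pyramidal neurons averaged lower in Braf-cko mice. The summed linear intensity of *Wfs1*, *Fibcd1* and *Pou3f1* was 3520 to 4460 in Braf-cko mice and 4680 to 5990 in Braf-flox mice, with no overlap. Each of the 3 averaged lower (log2 changes -0.35, -0.61 and -0.27), and 0 of the 3 passed the adjusted test, *Fibcd1* coming nearest with an adjusted p of 0.073 from limma. The paper lists *Fibcd1* itself among its genes lower in Braf-cko mice. The CA3 sum was 3380 to 5280 in Braf-cko mice and 3500 to 5460 in Braf-flox mice, and the dentate granule cell sum was 3720 to 5010 in Braf-cko mice and 3070 to 5700 in Braf-flox mice. Of 13 marker lists, the sums of 12 overlapped between Braf-cko and Braf-flox mice, and CA1 was the other one. The interneuron sum was 8110 to 9230 in Braf-cko mice and 8970 to 10500 in Braf-flox mice, with changes of -0.19 for *Gad1*, -0.04 for *Gad2* and -0.17 for *Slc32a1*. The 4 choroid plexus markers summed to 386 to 1910 in Braf-cko mice and 309 to 17000 in Braf-flox mice, and each averaged lower (*Ttr* -1.06, *Clic6* -0.51, *Kl* -0.34 and *Folr1* -0.15). In the Cre experiment the CA1 sum was 7450 to 8780 in CamkII-Cre mice and 6990 to 8380 in CamkII-wt mice. The part of these markers in the values of the cyclic nucleotide genes was not tested.

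No cyclic nucleotide gene passed the test for the Cre transgene alone. Of 43 members tested between CamkII-Cre and CamkII-wt mice, 0 passed the adjusted threshold (smallest adjusted p = 1 from limma) and 0 had an unadjusted p under 0.05, beside 0.00858% and 1.63% of all probes. Log2 changes ran from -0.17 to 0.21 with a median of 0.01. For 42 of the 43, 97.7%, the 95% interval lay within 0.5 log2 units of 0, beside 98.3% of all probes. The largest in each direction were *Adcy6*, for a cyclase that calcium inhibits, at -0.17 (95% interval -0.40 to 0.05, with 0.04 at its second probe), and *Prkaa2* at 0.21 (-0.11 to 0.53). *Prkar1b* gave 0.09 (-0.10 at its second probe), and *Pde4dip* and *Prkag1* gave 0.07 each, *Prkag1* being an AMPK subunit. Of the genes with low unadjusted p in the Braf comparison, *Pde1a* averaged 11.13 ± 0.23 in CamkII-Cre and 11.20 ± 0.15 in CamkII-wt mice (SD, n = 6 each), a log2 change of -0.07 (95% interval -0.29 to 0.14). *Adcy8* averaged 9.72 in both groups (95% interval of the change -0.26 to 0.25), and *Pde2a*, *Adcyap1r1*, *Pde7a*, *Pde4a* and *Prkg1* gave 0.07, -0.02, -0.03, 0.04 and 0.03. Other probes had the opposite sign for *Pde2a* (-0.16), *Pde7a* (0.07) and *Pde4a* (-0.13).

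The difference between both changes was tested in a fit of all 23 animals, which reuses the same mice. Of 45 members, 0 passed the adjusted threshold (smallest adjusted p = 0.49 from limma), beside 0.184% of all probes, and 6 had an unadjusted p under 0.05, 13.3%, beside 6.66% of all probes. On the log2 scale, the change in Braf-cko mice minus that in CamkII-Cre mice was 0.25 for *Adcyap1r1* (95% interval 0.07 to 0.43, unadjusted p = 0.0098) and -0.46 for *Pde1a* (-0.81 to -0.10, p = 0.014, limma). It was -0.52 for *Adcy8* (-0.95 to -0.10), -0.34 for *Prkg1* (-0.64 to -0.05), -0.45 for *Prkaa2* (-0.84 to -0.05) and 0.31 for *Adcy6* (0.03 to 0.59). The second probe gave -0.38 for *Pde1a* (-0.77 to 0.01), -0.11 for *Prkaa2* (-0.36 to 0.15) and -0.06 for *Adcy6* (-0.23 to 0.11), and the other probes of *Adcyap1r1* gave 0.29, 0.24 and 0.11. For *Adcy6* the sign of the difference thus depends on the probe. For *Prkaa2* and *Adcy6*, at their brightest probes, the change in CamkII-Cre mice had the opposite sign to that in Braf-cko mice. None of these genes is shown to respond otherwise in Braf-cko than in CamkII-Cre mice after adjustment.

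The rest of the pathway was read from 10 lists of 91 genes on the array, from receptors and G proteins to CREB-driven genes. Each gene was read at its brightest probe only. Of 65 tested in the Braf comparison 0 passed the adjusted threshold, 9 were lower and 4 higher at an unadjusted p under 0.05, and the median log2 change was -0.02. Of all probes, 0.373% passed as lower and 0.159% as higher, 5.41% and 5.37% had an unadjusted p under 0.05, and the median was 0. Upstream of the cyclases, *Gnai1*, for a G protein subunit that inhibits adenylyl cyclase, gave -0.34 (standard error 0.09, adjusted p = 0.13 from limma). Of the receptors that stimulate cyclase, *Drd5*, for a dopamine receptor, gave 0.19 (adjusted p = 0.34) and *Htr6*, for a serotonin receptor, -0.15 (adjusted p = 0.43). *Nos1*, the neuronal nitric oxide synthase ahead of guanylyl cyclase, gave 0.35 (adjusted p = 0.46), whereas the paper lists it among its genes higher in Braf-cko mice. Downstream, *Pkib*, for a peptide that inhibits PKA, gave -0.33 (standard error 0.09, adjusted p = 0.16), and *Akap2*, for a PKA anchor, -0.21 (adjusted p = 0.36). *Hcn2*, a channel opened by cAMP and hyperpolarization, gave -0.24 (adjusted p = 0.24), and *Bves*, for a Popeye protein that binds cAMP, 0.45 (adjusted p = 0.26). Of the CREB coactivators, *Crtc1* gave 0.26 and *Crebbp* -0.19 (adjusted p = 0.42 and 0.43). The other genes with the smallest p of their lists had unadjusted p-values above 0.05 and gave -0.13 (*Gnao1*, *Akap8l* and *Pkig*), -0.19 (*Arpp19*), 0.11 (*Ppp1r1a*), 0.10 (*Nppc*), -0.17 (*Acacb*) and -0.11 (*Map3k7*).

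The list of activity-induced genes that CREB drives had the lowest median of the 10, -0.28 over 10 tested genes. Of these, 0 passed after adjustment. At an unadjusted p under 0.05, 3 were lower and 0 higher, beside 5.41% lower and 5.37% higher of all probes. The 3 lower ones were the neurotrophin gene *Bdnf* (log2 change -0.50, standard error 0.13, adjusted p = 0.13 from limma), *Fosb* (-0.57, adjusted p = 0.24) and *Fos* (-1.14, adjusted p = 0.29), both for immediate early transcription factors. These genes also have inputs from ERK. The paper lists *Bdnf* as lower, on the arrays and by quantitative PCR. Of the lower genes in the paper with predicted CREB1 sites, the list read here holds only *Bdnf*. It lacks *Egr1*, *Egr4*, *Dusp4*, *Dusp5*, *Sst* and *Gria3*, among others. In the Cre comparison the same list had a median of 0.08 with 0 of 10 at an unadjusted p under 0.05. Over all 10 lists that comparison had 0 of 68 genes past the adjusted threshold and 1 at an unadjusted p under 0.05, *Gnal*, for a G protein subunit that stimulates cyclase (-0.26, adjusted p = 1). Of all probes in that comparison, 1.63% had an unadjusted p under 0.05.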

How the data were processed

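RNA of 23 hippocampi was measured on 36 arrays. The authors processed the arrays in R with beadarray, limma and vsn, and deposited a normalized intensity per probe and array on a linear scale. Settings are not given in the sources used here, and the array medians differ between the experiments. A second table has 72 columns of values whose names match no sample label, and it was not used. The deposited intensities were taken to log2 without a pseudocount, and the arrays of an animal (2 for each mouse of the Cre experiment and for 1 Braf-cko mouse) were averaged. Of 46632 probes, the brighter 50% (23316, ranked by mean within each comparison) were tested.

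Limma 3.58.1 in R 4.3.3 (lmFit and eBayes, two-sided) fitted each comparison on its own groups, with Benjamini-Hochberg adjustment over all probes tested and a threshold of 0.05. A fit of all 4 groups tested the difference between both changes. The fits were checked on simulated data. Exact permutation tests of group means were two-sided. P-values measure the spread between animals, whose number limits the precision. Alternatives were the filter, normalization, pseudocount, technical arrays, blocks, array weights, the methods' t-test, other probes and leaving out each animal.

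Symbols came from the platform annotation, and all 55 matched RefSeq. Promoter windows came from RefSeq (GRCm38.p6). They were not held for *Adcy6*, *Adcy8*, *Pde3a*, *Pde3b*, *Pde6a*, *Pde6c*, *Pde6g*, *Pde7a*, *Pde9a* and *Prkg2*. The genes named are the 12 members with the smallest p in the Braf comparison, the 5 in the others, that with the smallest p of each role, and the 2 with the smallest p in each list. Other genes were named after their values were seen. Members and lists were chosen with earlier results of these data known.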

Additional observations from a re-analysis of the deposited data

Results flagged for a closer look

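In 6 of 92 groups of animals checked over 23 named members, a mouse stood apart from its group by Dixon's test at 95%, which chance does in about 1 of 20 groups. *Pde8a* was 8.01 in Braf-cko mouse 4, with the nearest Braf-cko mouse at 7.48. *Pde5a* was 5.35 in Braf-cko mouse 3, with the nearest at 5.72. *Adcy4* was 7.43 in Braf-flox mouse 2 (nearest 7.07), and *Adcy6* 8.14 in Braf-flox mouse 5 (nearest 8.39). *Adcyap1* was 7.74 in Braf-flox mouse 1 (nearest 7.29) and 8.10 in CamkII-wt mouse 1 (nearest 7.85). All are log2 intensities of the brightest probe.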

How the results depend on the processing

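No member passed the adjusted threshold in any of the 3 comparisons under any alternative run, limma or the methods' t-test, or with any single animal left out. The adjusted p of *Pde1a* in the Braf comparison ran from 0.052 with a replicate block to 0.27 with the methods' t-test. Left out singly, animals gave 6 to 9 members at an unadjusted p under 0.05 in the Braf comparison, 0 to 1 in the Cre comparison and 4 to 7 in the difference. In the main fits 10.8%, 1.63% and 6.66% of all probes had such a p. These shares were not counted in the other fits. With an animal of the Braf comparison left out, *Pde1a*, *Adcy8*, *Pde2a* and *Adcyap1r1* had an unadjusted p under 0.05 in all 11 fits. *Pde7a* had one in 10, *Pde4a* in 9, *Prkg1* in 6 and *Prkaa2* in 5. The change of *Prkar2b* ran from -0.68 without Braf-cko mouse 3 to -0.24 without Braf-cko mouse 2. The change became -0.14 without Braf-flox mouse 1 and -0.15 without Braf-cko mouse 4 for *Adcyap1*, -0.15 without Braf-flox mouse 2 for *Adcy4*, -0.07 without Braf-cko mouse 3 for *Pde5a*, and -0.26 without Braf-cko mouse 4 and -0.09 without Braf-flox mouse 4 for *Pde8a*. In the Cre comparison that of *Prkaa2* became 0.11 without CamkII-Cre mouse 1 and 0.12 without CamkII-wt mouse 5.

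Over all probes, the 124 calls of the Braf comparison became 19 by the methods' t-test and 69 to 114 with an animal left out (72, 69 and 76 without Braf-cko mouse 1, 4 or 5, and 81 without Braf-flox mouse 5), and the difference had 31 to 60. The 2 calls of the Cre comparison became 6 with no filter, 4 in the brightest 25%, with the first array only, with array weights or with animals 1 to 3 and 4 to 6 as blocks, 1 by the methods' t-test, and 2 to 4 with an animal left out (4 without CamkII-Cre mouse 1). Its 0 members at an unadjusted p under 0.05 became 3 with no filter, and 1 by the methods' t-test, with the second array only, with those blocks, or without CamkII-Cre mouse 1 or CamkII-wt mouse 6. The main fit had 1.63% of all probes at such a p, and the share was not counted under these alternatives.

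Signs turned for *Pde6g* (-0.01 to 0.09 with an animal left out, lowest without Braf-flox mouse 2), *Pde3b* (-0.09 to 0.01, highest without Braf-cko mouse 3) and *Pde4dip* (-0.06 to 0.02, highest without Braf-cko mouse 5). At another tested probe they turned in the Braf comparison for 7 of 20 members: *Pde2a* (-0.15), *Pde10a* (0.06), *Pde4dip* (0.05), *Adcy3* (0.08), *Adcy6* (-0.02), *Pde4b* (-0.05) and *Prkar1b* (0.14). In the Cre comparison they turned for 8 of 19: *Adcy6* (0.04), *Prkar1b* (-0.10), *Pde2a* (-0.16), *Pde4a* (-0.13), *Pde7a* (0.07), *Pde8b* (-0.07), *Prkar1a* (-0.05) and *Pde10a* (0.01). The cause was not tested.

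The animals' numbers were not used as pairs in the main fits. Deviations of same-numbered Braf-cko and Braf-flox mice correlated from -0.14 to 0.13. Those of CamkII-Cre and CamkII-wt mice correlated from -0.24 to 0.59, so whether the numbers pair these mice cannot be told from the values. With the number as a replicate block, 58 probes were called in the Braf comparison, 3 in the Cre comparison and 39 in the difference, and 9, 1 and 7 members had an unadjusted p under 0.05. The share of all probes at that p was not counted with the block. Without detection values, background is known only through the filter on mean intensity.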
